A study of Caenorhabditis elegans with 15 samples.

Results

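The C. elegans genes whose symbols begin with spe, fer, ssp or msd, followed by a number, act in the formation and function of sperm. In the WBcel235 annotation 46 of the 46739 genes in the deposited count table have such a symbol: 29 named spe, 12 named ssp, 4 named msd and 1 named fer. All 46 are protein coding. They were chosen by name, a rule set, like the gene lists used below, with earlier results of these data known. They were followed through 15 RNA-seq libraries of whole adult worms, picked by hand 24 h after mid-L4 (the last larval stage), in 5 genotypes of 3 libraries each: the double knock-outs of gld2 with ccf1, with ccr4 and with parn1 (below gld2-ccf1, gld2-ccr4 and gld2-parn1), a gld2 single knock-out (gld2) and wild type (wt). Every double knock-out thus carries the gld2 knock-out as well. The labels name no allele and no sex and do not say whether the 3 libraries of a genotype come from separate cultures, so the p-values measure the spread between libraries, which may be technical.

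GLD-2 is a cytoplasmic poly(A) polymerase that lengthens mRNA tails in the germline, while CCF-1, CCR-4 and PARN-1 belong to enzymes that shorten them. A C. elegans hermaphrodite makes sperm first, late in larval life, and then switches to oocytes, so a young adult stores sperm but no longer makes it. In the testis or the early hermaphrodite germline, spermatocytes pack major sperm protein into fibrous bodies attached to membranous organelles, a structure written FB-MO. Spermatids are then activated into crawling sperm, for which the membranous organelles fuse with the plasma membrane, and proteins on or from the sperm act in fertilization and in the activation of the egg. The genes are grouped here by those steps: 10 for spermatogenesis and the FB-MO, 9 for activation, 8 for fertilization and egg activation, the 12 ssp genes (small sperm-specific proteins), the 4 msd genes (proteins with a major sperm protein domain), and 3 genes placed in no step.

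Library totals ran from 28065395 to 39445449 counts, and nuclear ribosomal RNA took over 4% of the counts in 4 libraries, 1 in each of gld2-ccf1, gld2-parn1, gld2 and wt, with 14.3% in gld2-ccf1 replicate 2. Of the targeted genes, gld-2 averaged 53.7 ± 0.853 CPM in gld2 and 211 ± 32.1 CPM in wt (SD, n = 3 each), where CPM is the count scaled to a library of 1000000 counts, after scaling by trimmed mean of M values (TMM) factors. The gene ccr-4 averaged 169.6 ± 7.45 CPM in gld2-ccr4 and 281 ± 16.95 CPM in gld2. The gene ccf-1 was not lower in libraries labelled gld2-ccf1 but higher than in gld2 (log2 fold change 9.86), and in those labelled gld2-parn1 parn-1 averaged 60.6 ± 4.74 CPM against 50.6 ± 4.15 CPM in gld2 (edgeR adjusted p = 0.0887), so these 2 genotypes are taken from their labels only, and every direction below that rests on them is that of the libraries labelled so.

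As a group the 46 genes were highest in gld2-parn1, then in gld2, gld2-ccr4 and gld2-ccf1, and lowest in wt, an order that among the mutants changed with the scaling. Their summed level was 367, 399.6 and 427 CPM in the gld2-ccf1 libraries, 488, 448 and 526 CPM in gld2-ccr4, 629, 637 and 692 CPM in gld2-parn1, 489, 561 and 613 CPM in gld2, and 232, 225 and 212 CPM in wt. Every mutant library exceeded every wt library, the gld2-ccf1 libraries lay below those of each other mutant genotype, the gld2-parn1 libraries lay above them, and gld2-ccr4 and gld2 overlapped. With factors taken from somatic genes instead, the sums averaged 415 ± 109 CPM in gld2-ccf1, 403 ± 27.9 CPM in gld2-ccr4, 586 ± 65.2 CPM in gld2-parn1, 707 ± 87.5 CPM in gld2 and 234 ± 42.2 CPM in wt (SD, n = 3 each). On average gld2 then came first, but its libraries overlapped those of gld2-parn1. The gld2-ccf1 libraries overlapped those of gld2-ccr4 and those of gld2-parn1. In these bulk libraries of whole worms, fewer cells of a type and less RNA per cell cannot be told apart.

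The wt sum came mostly from 4 genes. The vesicle-trafficking gene spe-39, which is also used outside sperm, took 48.8% of it, and together with spe-44, spe-48 and spe-5 it made up 86.3%, as shares of counts that are not corrected for gene length. Without these 4 genes the other 42 summed to 227 ± 24.9 CPM in gld2-ccf1, 335 ± 40.6 CPM in gld2-ccr4, 497 ± 34.0 CPM in gld2-parn1, 408 ± 59.8 CPM in gld2 and 30.5 ± 3.11 CPM in wt (SD, n = 3 each). In wt 14 of the 46 genes had at most 3 counts over the 3 libraries, 6 of them none, whereas in each mutant genotype only 1 gene had so few. Those 6 genes without a wt count were spe-10, spe-27, ssp-32, the ssp-9 gene WBGene00006040 and both genes named msd-1.

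**Figure D1:**
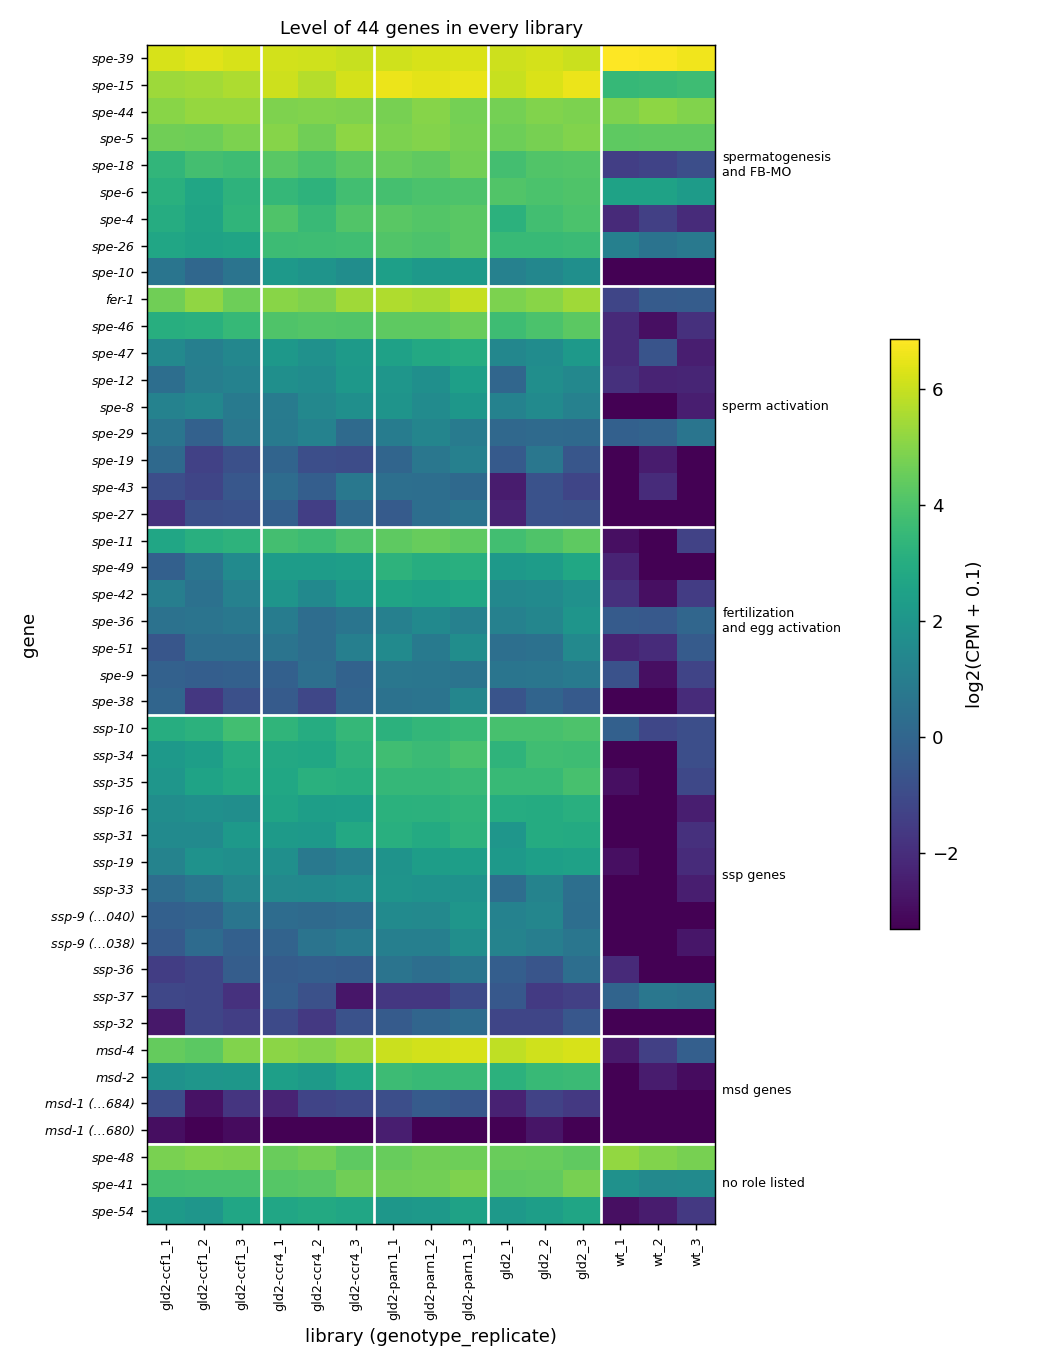
Level of 44 of the 46 genes (rows, grouped by step and ordered by mean level) in each of the 15 libraries (columns, named by genotype and replicate), with colour giving log2(CPM + 0.1). The wt columns are dark for all but a few rows, among them spe-39, spe-44, spe-48 and spe-5, which are about as bright in wt as in the mutants.

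The comparison of gld2 with wt asks what the loss of the poly(A) polymerase did to sperm RNA in the adult. With edgeR's quasi-likelihood test over 16888 genes (Benjamini-Hochberg adjusted p under 0.05), 39 of the 45 genes tested were higher in gld2, where 28.8% of all genes tested were, and 3 were lower, where 20.2% of all genes were. The filter on low counts shaped the first count: it asked for 0.276 CPM in at least 3 libraries, and 31 of the 45 genes did not reach that in all 3 wt libraries, so they entered the test through the mutants, where they are high, and had to differ. All 31 were higher in gld2. Of the 14 genes that did reach it in all 3 wt libraries, 8 were higher in gld2, 3 were lower and 3 were not called. The 8 were spe-5, spe-6, spe-15, spe-26, spe-36, spe-41, fer-1 and ssp-10. In the counts by step below, every other higher gene is one that had to differ. One of the genes named msd-1, WBGene00009680, had 7 counts in all 15 libraries and was not tested.

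Among the 10 genes for spermatogenesis and the FB-MO, 8 were higher in gld2, 1 was lower and 1 was not called. Of the higher ones only spe-5, spe-6, spe-15 and spe-26 reached 0.276 CPM in all 3 wt libraries. The unconventional myosin gene spe-15 (WBGene00004969, chromosome I, 1446497 to 1465358, plus strand) had 64.1, 76.9 and 93.1 CPM in the gld2 libraries, against 11.1, 11.97 and 12.9 CPM in the wt libraries. The groups lay far apart, with a log2 fold change of 2.698 ± 0.14 (SE) and an edgeR adjusted p of 1.07e-11. The presenilin gene spe-4 had 9.22, 13.4 and 15.8 CPM in the gld2 libraries, against 0.133, 0.278 and 0.138 CPM in the wt libraries (log2 fold change 6.13 ± 0.33 (SE), edgeR adjusted p = 7.97e-12). The gene spe-18, needed to assemble major sperm protein into fibrous bodies, had 14.1, 16.8 and 17.7 CPM in the gld2 libraries, against 0.266, 0.313 and 0.441 CPM in the wt libraries. For spe-26, which encodes a kelch-repeat protein that binds actin, the values were 11.4, 11.4 and 12.1 CPM in the gld2 libraries, against 2.06, 1.36 and 1.63 CPM in the wt libraries. These 3 genes were separated without overlap, and the log2 fold change was 5.54 ± 0.23 (SE) for spe-18 and 2.79 ± 0.17 (SE) for spe-26. The palmitoyltransferase gene spe-10 had 2.11, 2.51 and 3.28 CPM in the gld2 libraries and no count in wt, and was at least 82.5-fold higher in gld2, with 304 counts in gld2 and 0 in wt over the 3 libraries of each. The casein kinase gene spe-6, already detected in wt, had 17.2, 15.8 and 16.4 CPM in the gld2 libraries, against 5.71, 5.78 and 4.77 CPM in the wt libraries (log2 fold change 1.605 ± 0.17 (SE), edgeR adjusted p = 1.48e-07).

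The gene spe-39 (WBGene00004975, chromosome V, 6785451 to 6787864, plus strand) went the other way, with 66.9, 73.2 and 65.2 CPM in the gld2 libraries, against 116, 111 and 99.6 CPM in the wt libraries. No gld2 library reached the lowest wt library, and the log2 fold change was -0.67 ± 0.08 (SE) (edgeR adjusted p = 5.64e-07). The transcription factor gene spe-44 (WBGene00007732, chromosome IV, 12452063 to 12454215, minus strand), which switches on genes of the spermatogenesis program, had 26.2, 30.1 and 28.4 CPM in the gld2 libraries, against 29.8, 34.6 and 30.2 CPM in the wt libraries. These groups overlapped, and the log2 fold change of -0.16 ± 0.10 (SE) was not called (edgeR adjusted p = 0.219). The V-ATPase subunit gene spe-5 had 24.2, 26.9 and 30.6 CPM in the gld2 libraries, against 20.4, 20.6 and 20.6 CPM in the wt libraries (log2 fold change 0.41 ± 0.12 (SE), edgeR adjusted p = 0.00953), and its call was lost without gld2 replicate 3. When 1 library at a time was left out, its log2 fold change ran from 0.31 to 0.49.

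Of the 9 activation genes, 8 were higher in gld2 and 1 was not called. Only fer-1 of the higher ones reached 0.276 CPM in all 3 wt libraries. The ferlin gene fer-1 (WBGene00001414, chromosome I, 8623012 to 8631202, minus strand), needed for membranous organelles to fuse with the plasma membrane, had 28.5, 33.2 and 42.5 CPM in the gld2 libraries, against 0.332, 0.661 and 0.689 CPM in the wt libraries (log2 fold change 5.93 ± 0.29 (SE), edgeR adjusted p = 1.76e-10). Loss of spe-46 or spe-47 is known to let sperm activate too early. Their levels were 12.9, 15.6 and 19.8 CPM in the gld2 libraries, against 0.133, 0.0348 and 0.165 CPM in the wt libraries for spe-46, and 2.54, 2.97 and 4.42 CPM in the gld2 libraries, against 0.133, 0.522 and 0.0826 CPM in the wt libraries for spe-47. Both were separated without overlap, by log2 fold changes of 7.08 ± 0.29 (SE) and 3.79 ± 0.42 (SE). The other 6 genes make up the spe-8 group, which relays the activating signal in hermaphrodites, and all were low, with means from 0.297 CPM for spe-43 to 2.39 CPM for spe-8 in gld2. The tyrosine kinase gene spe-8 had a CPM ratio of 76.03 (95% counting interval 25.7 to 371, 280 counts in gld2 and 3 in wt, summed over 3 libraries each). The ratio of spe-19 was 43.99 (95% counting interval 11.9 to 368, 108 counts in gld2 and 2 in wt, summed over 3 libraries each), and spe-27 was at least 10.9-fold higher in gld2, with 40 counts in gld2 and 0 in wt over the 3 libraries of each. The gene spe-12 was higher by 4.11 ± 0.50 (SE) on the log2 scale. The gene spe-43 had 0.0718, 0.487 and 0.334 CPM in the gld2 libraries, against 0, 0.139 and 0 CPM in the wt libraries. These overlapped, and its log2 fold change of 2.69 ± 0.91 (SE) (edgeR adjusted p = 0.0191) lost its call without gld2 replicate 2, wt replicate 1 or wt replicate 3, with values of 2.05 to 6.44 when 1 library at a time was left out. The gene spe-29 averaged 1.01 ± 0.0352 CPM in gld2 and 1.01 ± 0.367 CPM in wt (SD, n = 3 each) and was not called, and 117 of its exon bases overlap gon-1.

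Of the 8 genes for fertilization and egg activation, 7 were higher in gld2 and 1 was not called. Only spe-36 of the higher ones reached 0.276 CPM in all 3 wt libraries. The gene spe-11 (WBGene00004965, chromosome I, 5330578 to 5332169, minus strand), a paternal factor that the egg needs for its activation, had 13.6, 16.5 and 20.2 CPM in the gld2 libraries, against 0.0332, 0 and 0.303 CPM in the wt libraries (log2 fold change 7.03 ± 0.42 (SE), edgeR adjusted p = 3.03e-10). The sperm membrane protein genes spe-42 and spe-49 encode relatives of the mammalian fusion protein DC-STAMP. The gene spe-42 had 2.56, 2.87 and 3.45 CPM in the gld2 libraries, against 0.166, 0.0348 and 0.248 CPM in the wt libraries, and spe-49 had 4.45, 4.89 and 6.64 CPM in the gld2 libraries, against 0.0996, 0 and 0 CPM in the wt libraries. Both were separated without overlap, by a log2 fold change of 4.22 ± 0.39 (SE) for spe-42 and a CPM ratio of 167 (95% counting interval 56.97 to 813, 616 counts in gld2 and 3 in wt, summed over 3 libraries each) for spe-49. The gene spe-36, for a secreted protein with an epidermal growth factor motif, averaged 2.81 ± 0.905 CPM in gld2 and 0.742 ± 0.169 CPM in wt (SD, n = 3 each), a log2 fold change of 1.903. Log2 fold changes were 2.397 for spe-9, 3.64 for spe-38 and 2.44 for spe-51.

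Of the 12 ssp genes, 11 were higher in gld2 and 1 was lower. Only ssp-10 of the higher ones reached 0.276 CPM in all 3 wt libraries. The gene ssp-10 (WBGene00006039, chromosome IV, 9850702 to 9851031, minus strand) had 14.6, 14.95 and 16.1 CPM in the gld2 libraries, against 0.764, 0.348 and 0.441 CPM in the wt libraries (log2 fold change 4.87 ± 0.27 (SE), edgeR adjusted p = 1.56e-11). The genes ssp-34 and ssp-35 followed it among the ssp genes by mean CPM. They had 9.74, 13.2 and 12.9 CPM in the gld2 libraries, against 0, 0 and 0.441 CPM in the wt libraries for ssp-34, and 11.7, 11.6 and 14.8 CPM in the gld2 libraries, against 0.0332, 0 and 0.358 CPM in the wt libraries for ssp-35. Neither overlapped between the genotypes, and the log2 fold changes were 6.15 ± 0.58 (SE) and 6.42 ± 0.47 (SE). Another 2 had almost no wt counts: ssp-16, with 7.76, 7.68 and 8.59 CPM in gld2 and a CPM ratio of 253 (95% counting interval 86.4 to 1231, 933 counts in gld2 and 3 in wt, summed over 3 libraries each), and ssp-33, with 1.15, 2.23 and 1.22 CPM in gld2 and a ratio of 48.6 (95% counting interval 16.4 to 238, 179 counts in gld2 and 3 in wt, summed over 3 libraries each). The gene ssp-19, for a small protein like major sperm protein, had 4.405, 5.33 and 5.59 CPM in the gld2 libraries, against 0.0332, 0 and 0.138 CPM in the wt libraries (log2 fold change 6.28 ± 0.49 (SE)). The symbol ssp-9 covers a pair of genes. Of these WBGene00006040 had 2.15, 2.48 and 1.195 CPM in the gld2 libraries and was at least 62.5-fold higher in gld2, with 230 counts in gld2 and 0 in wt over the 3 libraries of each, and WBGene00006038 had a CPM ratio of 91.6 (95% counting interval 25.1 to 761, 225 counts in gld2 and 2 in wt, summed over 3 libraries each). Reads may be split between the pair, so each value is uncertain. The gene ssp-32 was at least 13.03-fold higher in gld2, with 48 counts in gld2 and 0 in wt over the 3 libraries of each, and the log2 fold changes of ssp-31 and ssp-36 were 6.59 and 4.15. The one lower gene, ssp-37, had 0.598, 0.2305 and 0.278 CPM in the gld2 libraries, against 0.863, 1.53 and 1.405 CPM in the wt libraries. These did not overlap, but the log2 fold change of -1.76 ± 0.65 (SE) (edgeR adjusted p = 0.0298) lost its call without gld2 replicate 2 or 3 or wt replicate 2 or 3, with values of -2.303 to -1.51 when 1 library at a time was left out.

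The 3 msd genes tested were all higher in gld2, and none of them reached 0.276 CPM in all 3 wt libraries. The gene msd-4 (WBGene00016447, chromosome III, 4868414 to 4868743, minus strand) had 59.3, 69.6 and 76.5 CPM in the gld2 libraries, against 0.0664, 0.278 and 0.744 CPM in the wt libraries (log2 fold change 7.46 ± 0.36 (SE), edgeR adjusted p = 1.86e-09). The gene msd-2 had 9.26, 11.7 and 12.1 CPM in the gld2 libraries, against 0, 0.0696 and 0.0275 CPM in the wt libraries, a CPM ratio of 346 (95% counting interval 118 to 1682, 1276 counts in gld2 and 3 in wt, summed over 3 libraries each). All 330 exon bases of msd-2 lie within the gene F44D12.16 on the same strand, so its value depends on how shared reads were counted. The msd-1 gene WBGene00009684 had 0.0958, 0.307 and 0.222 CPM in gld2 and was at least 6.52-fold higher in gld2, with 24 counts in gld2 and 0 in wt over the 3 libraries of each. Of the 3 genes placed in no step, the calcium channel gene spe-41 had 20.4, 20.97 and 27.1 CPM in the gld2 libraries, against 3.45, 2.68 and 2.84 CPM in the wt libraries (log2 fold change 2.93 ± 0.17 (SE)). The gene spe-54 had 4.36, 5.17 and 6.23 CPM in the gld2 libraries, against 0.0332, 0.0696 and 0.2204 CPM in the wt libraries (log2 fold change 5.48 ± 0.39 (SE)). Both were separated without overlap. The gene spe-48 was lower in gld2, with 23.1, 22.7 and 20.6 CPM in the gld2 libraries, against 37.3, 30.1 and 27.1 CPM in the wt libraries (log2 fold change -0.51 ± 0.12 (SE), edgeR adjusted p = 0.00165).

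The directions of the 3 lower genes held when the libraries were scaled on somatic genes, which moved the median of all genes by 0.284 on the log2 scale, but no call did: the log2 fold change was then -0.39 for spe-39, -0.24 for spe-48 and -1.45 for ssp-37, and 39 members were higher and 0 lower. With the somatic scaling 5905 of the 16888 genes tested were higher and 1109 lower. Over all genes 58.9% of the calls were higher in gld2 with the main scaling and 84.2% with the somatic one.

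**Figure D2:**
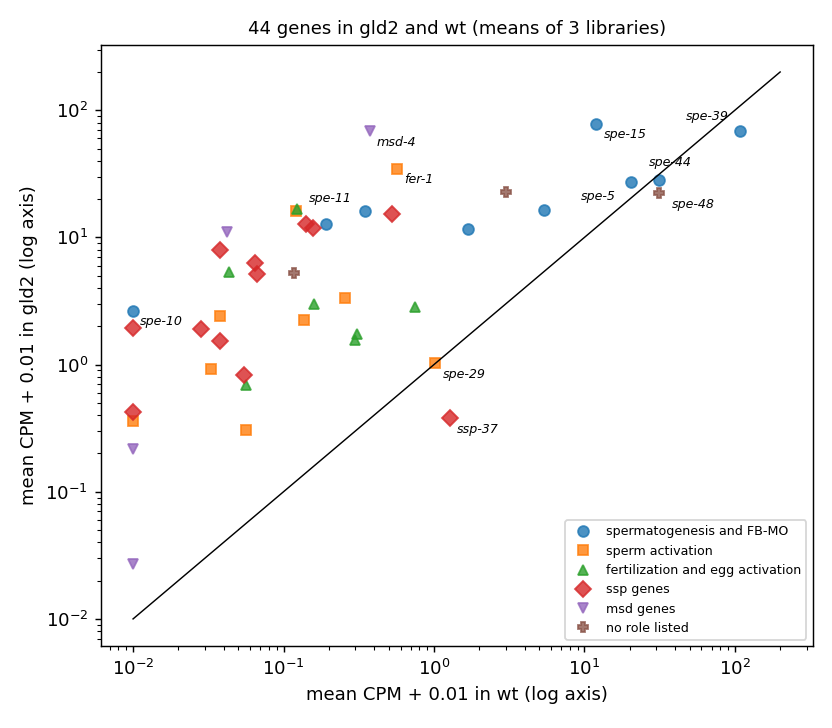
Mean CPM + 0.01 (log axes) of 44 of the 46 genes in gld2 (vertical) and in wt (horizontal), means of 3 libraries each, with symbols for the step and a line where the genotypes are equal. Most genes lie far above the line, while spe-39, spe-48 and ssp-37 lie below it and spe-44, spe-5 and spe-29 lie near it.

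Oocyte markers moved the other way. Of 16 markers 14 were lower in gld2 and 2 were not called, and their summed level ran from 8307 to 8576 CPM in gld2 and from 15021 to 17486 CPM in wt. With somatic scaling 13 were lower and 0 higher. Of 9 genes for male somatic cells and male secretions, 6 were tested. Here lov-1, klp-6, mab-3 and try-5 were higher in gld2, plg-1 was lower and pkd-2 was not called. Over all genes tested 28.8% were higher and 20.2% lower. Only 6, 4 and 4 of the 9 had any count in wt replicates 1, 2 and 3. A marker near 0 in wt could pass the filter on low counts only through the mutants. The defining markers cwp-1 and dmd-3 had no count in wt and averaged 0.0492 and 0.0256 CPM in gld2. The third untested marker, cwp-4, had 12 counts in gld2 and 14 in wt, with means of 0.0991 CPM in gld2 and 0.143 CPM in wt. The summed level of the 9 ran from 14.4 to 19.2 CPM in gld2 and from 26.9 to 42.04 CPM in wt, most of it plg-1. The part of these cells in the members' values was not tested.

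The double knock-outs were each set against gld2 to ask what differed in libraries labelled with a second knock-out. All 3 comparisons share the same 3 gld2 libraries. In gld2-ccf1, 18 of the 45 genes tested were lower than in gld2, where 16.7% of all genes tested were, and 2 were higher, where 19.8% of all genes were. The members' median log2 fold change was -0.77 and that of all genes tested 0.00464. Over the 37 members that passed 0.276 CPM in all libraries of both genotypes, 32 fold changes were negative and 5 positive, with a median of -0.80. By step, the lower genes were 6 of 10 for spermatogenesis and the FB-MO, 1 of 9 for activation, 3 of 8 for fertilization and egg activation, 5 of 12 ssp genes, 2 of 3 msd genes tested, and spe-41.

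The lower genes of the FB-MO group included spe-4, spe-6, spe-10, spe-15 and spe-26. The myosin gene spe-15 had 41.6, 43.1 and 48.7 CPM in the gld2-ccf1 libraries, all below its gld2 libraries, which ran from 64.1 to 93.1 CPM (log2 fold change -0.81 ± 0.13 (SE), edgeR adjusted p = 5.99e-05). The kelch gene spe-26 had 6.41, 5.704 and 6.06 CPM in the gld2-ccf1 libraries, against 11.4, 11.4 and 12.1 CPM in the gld2 libraries (log2 fold change -0.94 ± 0.15 (SE), edgeR adjusted p = 7.34e-05). Log2 fold changes were -0.998 for spe-6, -1.02 for spe-10 and -0.68 for spe-4. For fertilization and egg activation, spe-49 averaged 1.68 ± 1.05 CPM in gld2-ccf1 and 5.33 ± 1.16 CPM in gld2 (SD, n = 3 each), a log2 fold change of -1.64 ± 0.36 (SE). The paternal factor gene spe-11 averaged 8.15 ± 1.53 CPM in gld2-ccf1 and 16.8 ± 3.33 CPM in gld2 (-1.04), and spe-36 changed by -0.96 on the log2 scale. Among activation genes only spe-46 was called lower, by -0.78 ± 0.18 (SE), while fer-1 averaged 28.6 ± 6.64 CPM in gld2-ccf1 and 34.8 ± 7.13 CPM in gld2 (edgeR adjusted p = 0.289).

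The msd genes msd-4 and msd-2 were lower too. The gene msd-4 had 21.6, 19.6 and 30.2 CPM in the gld2-ccf1 libraries, against 59.3, 69.6 and 76.5 CPM in the gld2 libraries, and msd-2 had 3.54, 4.03 and 4.12 CPM in the gld2-ccf1 libraries, against 9.26, 11.7 and 12.1 CPM in the gld2 libraries. Neither gene overlapped between the genotypes, and the log2 fold changes were -1.52 ± 0.23 (SE) (edgeR adjusted p = 2.66e-04) and -1.496 ± 0.20 (SE) (edgeR adjusted p = 1.07e-05). The 5 lower ssp genes were ssp-10, ssp-16, ssp-31, ssp-35 and the ssp-9 gene WBGene00006038, with log2 fold changes from -1.32 for ssp-16 to -0.56 for ssp-10. The channel gene spe-41 averaged 14.6 ± 0.315 CPM in gld2-ccf1 and 22.8 ± 3.72 CPM in gld2 (-0.65). When 1 library at a time was left out, 13 of the 18 genes kept their call in each of the 6 fits, and spe-4, spe-36, ssp-10, ssp-31 and WBGene00006038 lost it in 2 to 5 of them. For spe-4 these were the fits without gld2-ccf1 replicate 2 or gld2 replicate 2 or 3 (log2 fold change from -0.87 to -0.50 over the 6 fits), and for spe-36 those without gld2-ccf1 replicate 1 or gld2 replicate 3 (-1.12 to -0.67). For ssp-10 they were those without gld2-ccf1 replicate 1 or 2 or any gld2 library (-0.83 to -0.41).

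The 2 higher genes were not among those higher in gld2 than in wt. The transcription factor gene spe-44 had 32.7, 38.4 and 38.4 CPM in the gld2-ccf1 libraries, against 26.2, 30.1 and 28.4 CPM in the gld2 libraries (log2 fold change 0.37 ± 0.10 (SE), edgeR adjusted p = 0.00809). The gene spe-48 had 27.9, 30.7 and 29.7 CPM in the gld2-ccf1 libraries, against 23.1, 22.7 and 20.6 CPM in the gld2 libraries (log2 fold change 0.41 ± 0.12 (SE), edgeR adjusted p = 0.012). The groups of both did not overlap. The call of spe-48 was lost without gld2 replicate 3 (0.36 to 0.45 over the 6 fits), and both calls were lost when the 4 libraries with over 4% ribosomal RNA were left out, which left 12 lower and 0 higher members. With scaling on somatic genes 26 members were lower and 0 higher, where 3948 of the 16888 genes tested were lower and 1223 higher. Of all calls 23.7% were then higher, against 54.3% with the main scaling. Oocyte markers were higher beside these changes, 11 of 16 in gld2-ccf1 over gld2. Their sums were 8784, 12734 and 9430 CPM in the gld2-ccf1 libraries and ran from 8307 to 8576 CPM in gld2. The highest sum is that of gld2-ccf1 replicate 2, the library with 14.3% ribosomal RNA, and the other gld2-ccf1 sums lay nearer to those of gld2. Scaled on somatic genes, 7 of the 16 were higher and 1 lower. Their part in the members' values was not tested.

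In gld2-ccr4, 6 of the 45 genes tested (13.3%) were lower than in gld2, near the 9.23% of all genes tested that were. Only 1 (2.22%) was higher, where 11.1% of all genes were. The median log2 fold change was -0.11 over the members and 0.00105 over all genes. Of the 40 members past 0.276 CPM in all libraries of both genotypes, 22 fold changes were negative and 18 positive. The lower genes were msd-2, msd-4, spe-6, spe-36, ssp-10 and ssp-19, and 5 of these 6, all but ssp-19, were also lower in gld2-ccf1 against the same gld2 libraries. The gene msd-4 had 34.2, 31.4 and 38.2 CPM in the gld2-ccr4 libraries, against 59.3, 69.6 and 76.5 CPM in the gld2 libraries (log2 fold change -0.98 ± 0.23 (SE), edgeR adjusted p = 0.00958). The gene msd-2 had 5.23, 4.54 and 6.39 CPM in the gld2-ccr4 libraries, against 9.26, 11.7 and 12.1 CPM in the gld2 libraries (log2 fold change -1.03 ± 0.20 (SE), edgeR adjusted p = 9.82e-04). No gld2-ccr4 library of either gene reached the lowest gld2 library. The gene ssp-19 had 3.24, 1.65 and 2.06 CPM in the gld2-ccr4 libraries, against 4.405, 5.33 and 5.59 CPM in the gld2 libraries (log2 fold change -1.14 ± 0.31 (SE)). The other log2 fold changes were -0.55 for spe-6, -0.92 for spe-36 and -0.67 for ssp-10.

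The one higher gene, spe-43 of the spe-8 group, had 1.12, 0.715 and 1.59 CPM in the gld2-ccr4 libraries, against 0.0718, 0.487 and 0.334 CPM in the gld2 libraries (log2 fold change 1.94 ± 0.65 (SE), edgeR adjusted p = 0.0402), a change that rests on low gld2 values. Only msd-2 and msd-4 kept their call whichever library was left out, while ssp-19 lost it in 2, spe-36 and spe-6 in 4 and ssp-10 in 5 of the 6 fits. The number of lower genes fell to 2 without gld2-ccr4 replicate 2 and to 3 without gld2 replicate 3. The call of spe-43 was lost without gld2-ccr4 replicate 1 or 3 or gld2 replicate 1 or 3 (1.46 to 2.501 over the 6 fits). When libraries were scaled on somatic genes, 22 members were lower and 0 higher, where 7993 of the 16888 genes tested were lower and 385 higher. The members' count of lower genes was thus near the share over all genes. Of all calls 4.60% were then higher, against 54.6% with the main scaling. That scaling moved the median of all genes by -0.62 on the log2 scale. Of the oocyte markers 2 were higher and 1 was lower in gld2-ccr4 than in gld2, and their sums ran from 8214 to 8451 CPM in gld2-ccr4 and from 8307 to 8576 CPM in gld2. With scaling on somatic genes 10 of the 16 were lower and 0 higher.

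In gld2-parn1, 6 of 45 genes were higher than in gld2 and 0 lower, where 4.90% of all genes tested were higher and 4.90% lower. At an unadjusted p under 0.05 edgeR gave 16 higher and 1 lower, and DESeq2 called 10 higher and 0 lower. The median log2 fold change was 0.50 over the members and 0.0243 over all genes, and of the 41 members past 0.276 CPM in all libraries of both genotypes 34 fold changes were positive and 7 negative. Scaling on somatic genes moved the median of all genes by -0.507, to -0.483. With it 0 members were higher and 3 lower, where 203 of the 16888 genes tested were higher and 6539 lower. The members' median was then -0.01, so the group no longer lay above gld2, while it stayed above the median of all genes. Over all genes 3.01% of the calls were then higher, against an equal split of 827 higher and 827 lower with the main scaling.

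The 6 higher genes came from several steps. For spermatogenesis and the FB-MO they were spe-10, spe-18 and spe-26. The gene spe-26 had 17.1, 16.1 and 19.2 CPM in the gld2-parn1 libraries, against 11.4, 11.4 and 12.1 CPM in the gld2 libraries (log2 fold change 0.58 ± 0.15 (SE), edgeR adjusted p = 0.0161). The gene spe-10 had 5.33, 4.45 and 4.62 CPM in the gld2-parn1 libraries, against 2.11, 2.51 and 3.28 CPM in the gld2 libraries (log2 fold change 0.87 ± 0.26 (SE)), and spe-18 averaged 22.9 ± 2.67 CPM in gld2-parn1 and 16.2 ± 1.88 CPM in gld2 (SD, n = 3 each; 0.50). The others were spe-42 for fertilization, spe-47 for activation and ssp-33. The gene spe-42 had 6.11, 5.504 and 6.41 CPM in the gld2-parn1 libraries, against 2.56, 2.87 and 3.45 CPM in the gld2 libraries (log2 fold change 1.02 ± 0.28 (SE), edgeR adjusted p = 0.0241). The gene spe-47 had 5.62, 7.04 and 7.704 CPM in the gld2-parn1 libraries, against 2.54, 2.97 and 4.42 CPM in the gld2 libraries (log2 fold change 1.04 ± 0.31 (SE), edgeR adjusted p = 0.0405). The gene ssp-33 had 3.75, 3.55 and 3.56 CPM in the gld2-parn1 libraries, against 1.15, 2.23 and 1.22 CPM in the gld2 libraries (log2 fold change 1.24 ± 0.36 (SE), edgeR adjusted p = 0.033). All 6 genes were separated without overlap between these genotypes, but no call survived every left-out library. No member was called without gld2-parn1 replicate 1, gld2-parn1 replicate 3 or gld2 replicate 1, 1 was called without gld2 replicate 2, 2 without gld2-parn1 replicate 2, and 3 without the libraries with over 4% ribosomal RNA. The genes msd-4 and msd-2, lower in the other double knock-outs, averaged 70.7 ± 5.04 and 11.996 ± 0.474 CPM in gld2-parn1 and 68.5 ± 8.64 and 10.99 ± 1.51 CPM in gld2, and were not called. Oocyte markers summed to between 8652 and 9718 CPM in gld2-parn1 and between 8307 and 8576 CPM in gld2. Of the 16, 2 were higher, and with scaling on somatic genes 5 were lower and 0 higher.

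**Figure D3:**
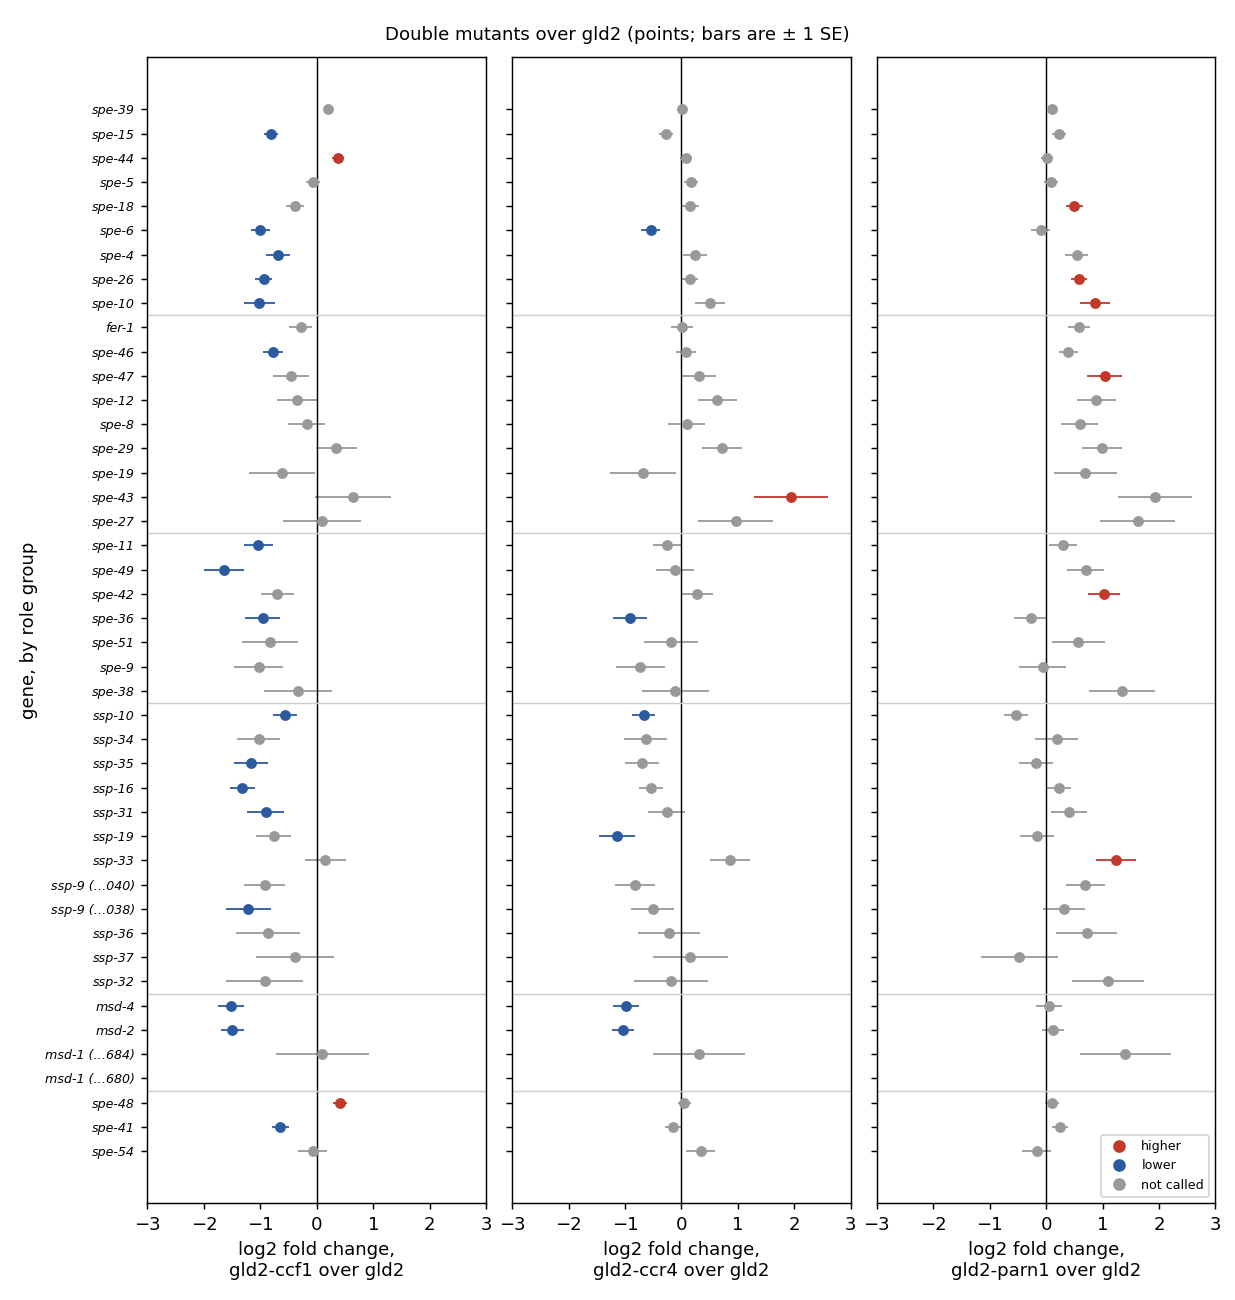
Log2 fold change (horizontal, points with bars of ± 1 SE) of 43 of the 45 tested genes (rows, grouped by step) in each double knock-out over gld2, coloured by call at an edgeR adjusted p under 0.05. Most called points lie left of 0 in gld2-ccf1 and in gld2-ccr4, where 6 genes are called lower, and in gld2-parn1 the 6 called genes lie right of 0.

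Set directly against each other, without the shared gld2 libraries, the double knock-outs had the largest number of calls between gld2-ccf1 and gld2-parn1. There 29 of 45 genes were lower in gld2-ccf1, where 17.2% of all genes tested were, and 1 was higher, where 20.0% were. The lower genes included 7 of 10 for spermatogenesis and the FB-MO, 6 of 8 for fertilization and egg activation, 4 of 9 for activation, 9 of 12 ssp genes and 2 of 3 msd genes tested, and 20 of the 29 kept their call whichever library was left out. The gene spe-26 had 6.41, 5.704 and 6.06 CPM in the gld2-ccf1 libraries, against 17.1, 16.1 and 19.2 CPM in the gld2-parn1 libraries (log2 fold change -1.52 ± 0.15 (SE), edgeR adjusted p = 3.47e-07). The paternal factor gene spe-11 had 6.497, 8.43 and 9.51 CPM in the gld2-ccf1 libraries, against 19.97, 22.3 and 19.99 CPM in the gld2-parn1 libraries (log2 fold change -1.35 ± 0.26 (SE)). For spe-49 the values were 0.761, 1.47 and 2.82 CPM in the gld2-ccf1 libraries, against 9.55, 7.91 and 8.498 CPM in the gld2-parn1 libraries (log2 fold change -2.34 ± 0.36 (SE)). None of the 3 overlapped. The ferlin gene fer-1 averaged 28.6 ± 6.64 CPM in gld2-ccf1 and 52.2 ± 8.39 CPM in gld2-parn1 (SD, n = 3 each; -0.87). The higher gene was spe-44 (0.35 ± 0.10 (SE)), and its call was lost without gld2-parn1 replicate 1 or 3 (0.30 to 0.44 over the 6 fits). Scaled on somatic genes, 24 members were lower and 2 higher, where 1467 of the 16888 genes tested were lower and 3810 higher. Of all calls 72.2% were then higher in gld2-ccf1, against 53.8% with the main scaling.

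Between gld2-ccf1 and gld2-ccr4, 12 genes were lower in gld2-ccf1, where 11.6% of all genes tested were, and 2 were higher, where 14.4% were. The 12 included 6 of the 10 genes for spermatogenesis and the FB-MO. The palmitoyltransferase gene spe-10 had 1.46, 0.965 and 1.42 CPM in the gld2-ccf1 libraries, against 4.31, 3.796 and 3.07 CPM in the gld2-ccr4 libraries (log2 fold change -1.52 ± 0.27 (SE), edgeR adjusted p = 6.17e-04), and spe-26 changed by -1.09 ± 0.15 (SE). The higher genes were again spe-44 (0.29) and spe-48 (0.36), and neither call held in every fit that left 1 library out, with ranges of 0.25 to 0.37 and 0.27 to 0.44. Scaled on somatic genes, 4 members were lower and 3 higher, where 536 of the 16888 genes tested were lower and 4123 higher. Of all calls 88.5% were then higher in gld2-ccf1, against 55.4% with the main scaling. Between gld2-ccr4 and gld2-parn1, 6 genes were lower in gld2-ccr4, where 5.95% of all genes tested were, and 0 higher, where 7.34% were. No gene was higher by an unadjusted edgeR p under 0.05 or by DESeq2 either. These 6 were msd-2, msd-4, spe-15, ssp-16, ssp-19 and the ssp-9 gene WBGene00006040. The gene msd-4 had 34.2, 31.4 and 38.2 CPM in the gld2-ccr4 libraries, against 65.6, 70.98 and 75.7 CPM in the gld2-parn1 libraries (log2 fold change -1.03 ± 0.23 (SE), edgeR adjusted p = 0.011), without overlap. The number fell to 2 without gld2-ccr4 replicate 2 and to 3 without gld2-parn1 replicate 3, and DESeq2 called 14. When libraries were scaled on somatic genes, 7 members were lower, where 823 of the 16888 genes tested were. Of all calls 34.6% were then higher in gld2-ccr4, against 55.2% with the main scaling.

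**Figure D4:**
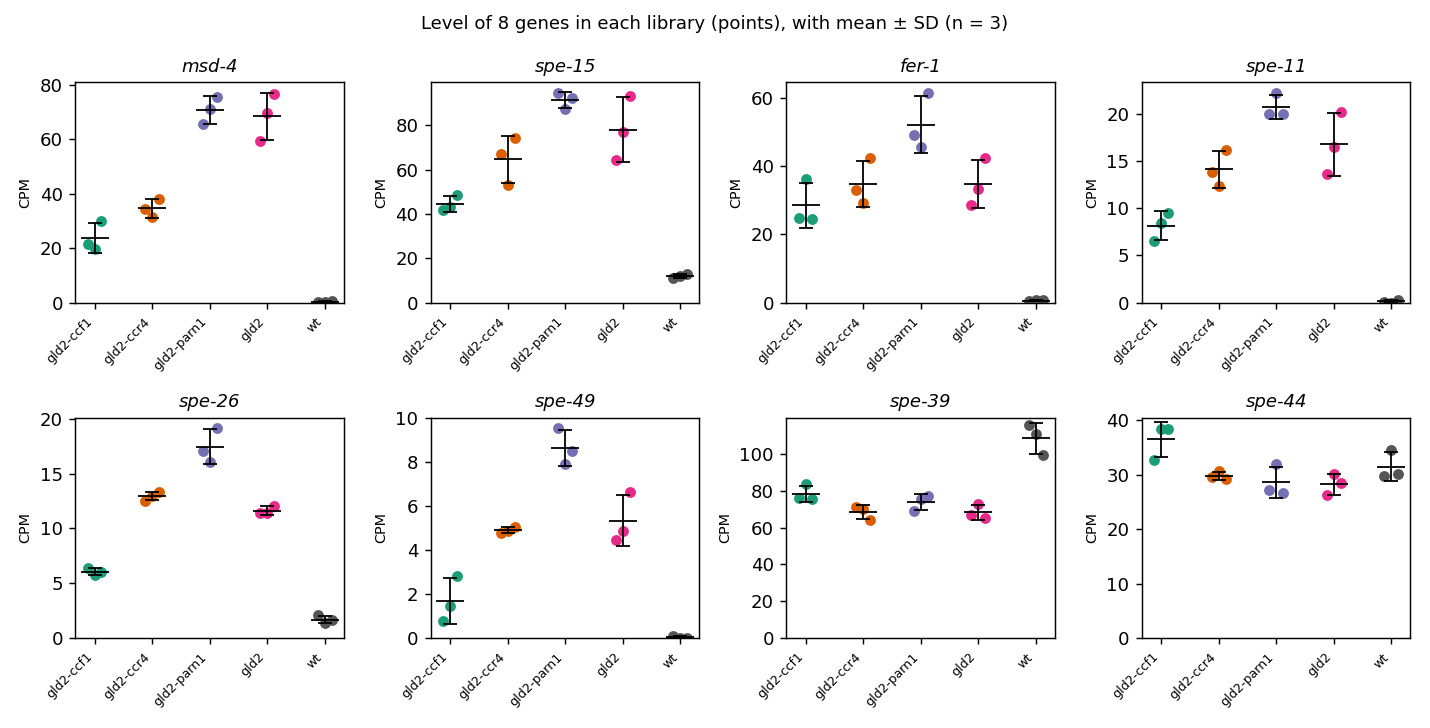
CPM (vertical, from 0) of 8 genes in each library (points), with the mean ± SD of the 3 libraries of each genotype. msd-4 is high in gld2-parn1 and gld2 and lower in gld2-ccf1 and gld2-ccr4, the wt points of msd-4, fer-1, spe-11 and spe-49 lie near 0, and spe-39 is highest in wt.

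Many of the genes had the same lowest and the same highest of the 4 mutant genotypes. The mean was lowest in gld2-ccf1 for 32 of the 45 genes tested (71.1%, against 32.1% of all genes tested) and highest in gld2-parn1 for 32 (71.1%, against 24.1%), and 27 genes (60.0%, against 14.04%) had both. With scaling on somatic genes the mean was lowest in gld2-ccf1 for 27 genes (60%, against 20.8% of all genes tested). It was then highest in gld2-parn1 for 21 (46.7%, against 12.65%) and in gld2 for 22 (48.9%, against 54.8%). The mutant genotypes often did not differ by the test: 19 members were called in none of the 3 comparisons with gld2. Of the called ones, spe-10 and spe-26 were lower in gld2-ccf1 and higher in gld2-parn1, both against the same gld2 libraries. The genes spe-39, spe-44 and spe-48, which take a large part of the wt sum, were neither lowest in gld2-ccf1 nor highest in gld2-parn1. The gene spe-39 averaged 78.6 ± 4.36 CPM in gld2-ccf1, 68.6 ± 3.94 CPM in gld2-ccr4, 73.9 ± 4.27 CPM in gld2-parn1, 68.4 ± 4.23 CPM in gld2 and 109 ± 8.41 CPM in wt (SD, n = 3 each).

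Against wt the double knock-outs gave counts close to those of gld2 alone. Higher were 39 genes in gld2-ccf1, 39 in gld2-ccr4 and 40 in gld2-parn1, where 32.1%, 30.0% and 28.9% of all genes tested were, and lower were 2, 3 and 3, where 19.7%, 20.8% and 21.5% were. These comparisons share the wt libraries, and the filter on low counts shaped them as it did that of gld2 with wt. In each genotype spe-39 and ssp-37 were lower than in wt, and spe-48 was lower in gld2-ccr4 and gld2-parn1, a call lost in both without wt replicate 1. The call of ssp-37 was lost in 1 of the 6 fits for gld2-ccf1 and in 4 of the 6 for gld2-ccr4, without gld2-ccf1 replicate 3, gld2-ccr4 replicate 2 or 3, or wt replicate 2 or 3. Scaled on somatic genes, 37, 37 and 38 genes were higher and 2, 3 and 3 lower. Of the 16888 genes tested 4692, 3353 and 3493 were then higher and 2066, 5043 and 4127 lower. Over all genes the share of calls that were higher was then 39.9% in gld2-ccr4 and 45.8% in gld2-parn1, against 59.1% and 57.3% with the main scaling, while in gld2-ccf1 it was 69.4%, against 62.0% with the main scaling.

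Per kb of exon, msd-4 had the highest level of the 46 in every mutant genotype, with 72.1 CPM per kb in gld2-ccf1, 104.9 in gld2-ccr4, 214 in gld2-parn1 and 207 in gld2, and 1.10 in wt. In gld2 it was followed by ssp-10 at 46.1, ssp-35 at 39.2, ssp-34 at 36.9 and spe-39 at 35.2 CPM per kb. In wt spe-39 led with 56.0 CPM per kb, followed by spe-48 at 24.9, spe-44 at 19.3 and spe-5 at 12.3. Of the 46 genes 17 lie on chromosome I and 18 on chromosome IV, 7 on V, 3 on III, 1 on II and none on X. Of the coding genes in the table, chromosome I holds 14.4%, II 17.1%, III 13.2%, IV 16.6%, V 25.1% and X 13.55%.

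Sperm genes with other names gave the wider pathway. Of 21 such genes 17 were higher in gld2 than in wt and 2 lower, where 28.8% and 20.2% of all genes tested were. However, 11 of the 21 averaged under 0.276 CPM in wt and passed the filter through the mutants. With somatic scaling 18 were higher and 1, cpb-1, was lower. The sperm phosphatase gene gsp-3 averaged 36.2 ± 4.39 CPM in gld2 and 0.113 ± 0.166 CPM in wt, and the Argonaute gene alg-4, which acts with small RNAs in the male germline, averaged 52.04 ± 12.7 CPM in gld2 and 0.234 ± 0.237 CPM in wt (SD, n = 3 each). The zinc transporter gene zipt-7.1 was lower, with 71.4 ± 2.31 CPM in gld2 and 107 ± 11.1 CPM in wt (log2 fold change -0.58 ± 0.09 (SE)), as was cpb-1, an RNA-binding protein gene needed for spermatogenesis, with 14.6 ± 1.99 CPM in gld2 and 44.5 ± 13.1 CPM in wt. The genes fog-1 and fog-3, which commit germ cells to the sperm fate, were both higher in gld2 than in wt (log2 fold changes 0.77 and 4.83). Both were lower in gld2-ccf1 (-0.57 and -1.12) and in gld2-ccr4 (-1.02 and -1.35) than in gld2, and fog-1 was lower in gld2-parn1 (-0.54). In all, 7 of the 21 were lower and 1 was higher in gld2-ccf1 than in gld2, where 16.7% and 19.8% of all genes tested were. In gld2-ccr4 2 were lower and 3 higher, near the 9.23% and 11.1% of all genes. In gld2-parn1 1 was lower and 6 were higher, where 4.90% of all genes were lower and 4.90% higher. When libraries were scaled on somatic genes, 12 were lower and 0 higher in gld2-ccf1, 10 lower and 1 higher in gld2-ccr4, and 4 lower and 1 higher in gld2-parn1. Of the 16888 genes tested 3948, 7993 and 6539 were then lower and 1223, 385 and 203 higher, so the 10 in gld2-ccr4 are near the share over all genes. Summed over the 21, the level ran from 316 to 365 CPM in gld2-ccf1, 398 to 470.3 CPM in gld2-ccr4, 554 to 639 CPM in gld2-parn1, 362 to 479.9 CPM in gld2 and 184 to 208 CPM in wt.

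**Figure D5:**
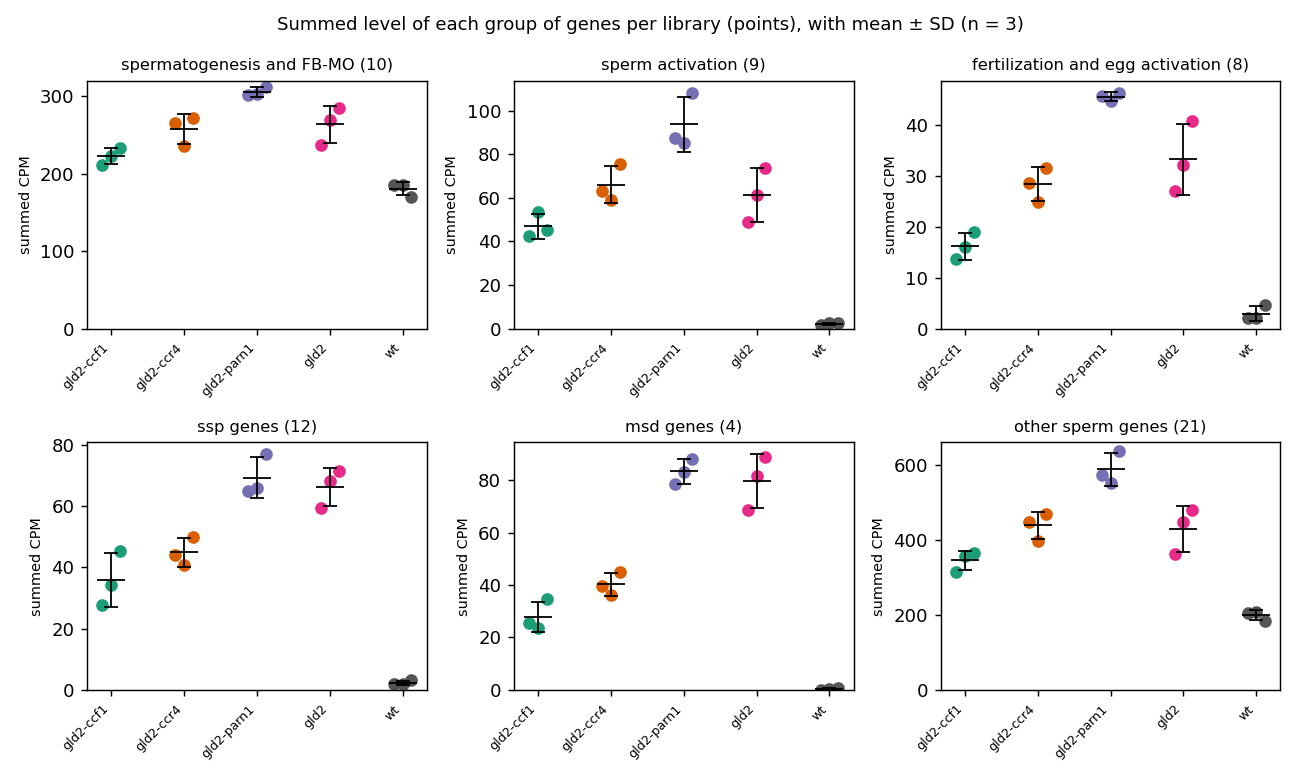
Summed CPM (vertical, from 0) of 5 of the gene groups and of 21 other sperm genes in each library (points), with the mean ± SD of the 3 libraries of each genotype; the number of genes is in each title. With this TMM scaling the gld2-ccf1 libraries are lowest of the mutants on average in every panel, and the wt libraries are near 0 except for the spermatogenesis and FB-MO group and the other sperm genes.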

How the data were processed

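Total RNA of whole worms was depleted of ribosomal RNA and made into strand-specific libraries, per the labels' protocols. Build WBcel235, the aligner STAR 2.5.2b, featureCounts with Subread 1.4.6-p4, FastQC and DESeq2 1.18.1 are named, without their roles, per the submitters' processing notes. Strand use in counting and the handling of reads shared between genes are not given in the sources used here. The authors deposited raw read counts per gene, which were tested, and a table of normalized signal. The deposited signal is each library's raw counts rescaled by a single constant (largest relative deviation 9.8e-10) and was not used further.

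Symbols, positions and exon lengths came from the WBcel235 annotation, in which 46484 of 46739 identifiers have a gene record. The tests were made on the counts in R 4.3.3 with edgeR 4.0.16, using filterByExpr by genotype, TMM factors, and glmQLFit (robust) with glmQLFTest, two-sided. All 15 libraries entered 1 fit with a mean for each of the 5 genotypes, which left 10 residual degrees of freedom. P-values were adjusted by Benjamini-Hochberg over the 16888 genes tested, with 0.05 as the threshold for a call. Biological variation in common was 0.178 as a coefficient. The standard error is the absolute log2 fold change over the square root of F. Levels are CPM on TMM-scaled library sizes, in the order of replicates 1 to 3. Against 0 counts in wt the fold is a lower bound set by 3 counts over the wt group, and with 1 to 3 counts it is a ratio of CPM with an exact 95% interval. Both cover counting error only. The test was also run on simulated counts with as many genes raised as lowered, a setting that does not cover the dependence on scaling described above.

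The genes and the lists of other sperm genes, oocyte markers and male somatic markers were chosen with earlier results of these data known. Of the listed symbols 7 had no match in the table. Genes described with every library's value are, in each group, the 3 with the highest mean and the 2 with the smallest adjusted p for gld2 with wt, every gene lower there, and the genes that went against the majority or had the 3 smallest adjusted p in a comparison with or between double knock-outs. Within each genotype no library copied another (chi-square per degree of freedom at least 12.3). The alternatives tried were RLE factors, TMM factors from 142 somatic genes, DESeq2 1.42.0, no filter, a stricter filter (1 CPM in 3 libraries), only the 6 libraries compared, ribosomal RNA genes left out, a replicate block, each replicate left out and, chosen after the data were seen, the 4 libraries above 4% ribosomal RNA left out. Results of 2 of the genes are not reported singly here, though group counts and sums include them.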

Additional observations from a re-analysis of the deposited data

How the results depend on the processing

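The counts of members called kept within 1.5 times of the main value unless named here. Scaling on somatic genes gave 0 lower for gld2 with wt, 0 higher for gld2-ccf1 with gld2, 0 higher and 22 lower for gld2-ccr4 with gld2, 0 higher and 3 lower for gld2-parn1 with gld2, 3 higher and 4 lower for gld2-ccf1 with gld2-ccr4, and 2 higher for gld2-ccf1 with gld2-parn1. Of the 16888 genes tested, 7993 were then lower for gld2-ccr4 with gld2 and 6539 for gld2-parn1 with gld2. That scaling also turned the sign of 18 of 45 members for gld2-ccr4 with gld2 and of 16 of 45 for gld2-parn1 with gld2. Those called in either of the compared fits were 6 for gld2-ccr4 with gld2, at log2 fold changes of -0.57 for spe-48, -0.62 for fer-1, -0.54 for spe-46, -0.62 for spe-39, -0.55 for spe-44 and -0.45 for spe-5, and 2 for gld2-parn1 with gld2, at -0.010 for spe-18 and -0.48 for spe-44. DESeq2 gave 2 higher for gld2-ccr4 with gld2, 10 higher for gld2-parn1 with gld2, 1 higher for gld2-ccf1 with gld2-ccr4 and 14 lower for gld2-ccr4 with gld2-parn1. With only the 6 libraries compared there were 13 higher and 1 lower for gld2-parn1 with gld2, 0 higher for gld2-ccf1 with gld2-ccr4, 2 higher for gld2-ccf1 with gld2-parn1 and 19 lower for gld2-ccr4 with gld2-parn1. RLE factors gave 0 higher and no filter 1 higher for gld2-ccf1 with gld2-ccr4, and the stricter filter, which tests fewer genes, gave 1 lower for gld2-ccf1 with wt. Without the 4 libraries above 4% ribosomal RNA, which leaves fewer samples, 0 were higher for gld2-ccf1 with gld2, gld2-ccr4 with gld2, gld2-ccf1 with gld2-ccr4 and gld2-ccf1 with gld2-parn1, and 3 for gld2-parn1 with gld2. The cause of the other changes was not tested.

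With 1 replicate left out at a time, higher and lower counts ran from 38 to 39 and 2 to 3 for gld2 with wt, 1 to 3 and 14 to 19 for gld2-ccf1 with gld2, 0 to 2 and 2 to 5 for gld2-ccr4 with gld2, and 0 to 5 and 0 to 0 for gld2-parn1 with gld2. They ran from 35 to 39 and 1 to 2 for gld2-ccf1 with wt, 38 to 40 and 2 to 3 for gld2-ccr4 with wt, and 39 to 41 and 2 to 3 for gld2-parn1 with wt. Between double knock-outs they ran from 0 to 2 and 8 to 15 for gld2-ccf1 with gld2-ccr4, 0 to 1 and 21 to 27 for gld2-ccf1 with gld2-parn1, and 0 to 0 and 2 to 7 for gld2-ccr4 with gld2-parn1.

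No clear pairing of the samples by replicate number was seen, and the labels do not say whether the numbers mark a shared batch. Deviations of same-numbered libraries correlated at -0.241 to 0.197 (median 0.0161, 30 pairs), and 7 of 15 libraries were closest on average to their own number. With the replicate block the members called higher and lower were 39 and 3 for gld2 with wt, 3 and 21 for gld2-ccf1 with gld2, 1 and 6 for gld2-ccr4 with gld2, and 6 and 0 for gld2-parn1 with gld2, and no count moved by over 1.5 times. Of 6707 alternative values of single genes, 6151 kept direction and side of the threshold, 255 lost a call and 151 gained one in the same direction, and 150 turned sign, 142 of them called in neither fit. Depth limits the genes near 0 in wt, for which only the bounds and ratios given can be stated.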
